A study of Homo sapiens with 6 samples.

Results

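The mu-class glutathione transferase genes GSTM4, GSTM2, GSTM1, GSTM5 and GSTM3 and the neighbouring gene EPS8L3 follow each other on chromosome 1, over 107.8 kb (chr1:109656099-109763923, hg38). The RefSeq table holds 19974 protein-coding genes, of which these are 6. NRF2 occupancy around them was read from chromatin immunoprecipitation and sequencing (ChIP-seq) of HMC3, an established human microglial cell line. Every peak with its summit inside one of the 6 genes, or within 50 kb of either end of one, was taken. This gave 7 of the 27532 listed peaks on chromosomes 1 to 22 and X, which joined into 3 of 19331 regions. The genes were chosen from these same peak lists, because GSTM5 and EPS8L3 were the protein-coding genes nearest to strong peaks. Their values are therefore given as a description and without a test.

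Treated cells had received CDDO-Im, a synthetic triterpenoid that activates NRF2, at 30 nM for 4 h, and the comparison cells a vehicle that the labels do not name. Each group had 2 immunoprecipitated libraries made with 1 anti-NRF2 antibody, called the CDDO-Im pair and the vehicle pair where both libraries of a group are meant. The treatment text is identical for every sample, so the groups rest on the sample titles. No label says that the replicates were separate cultures, so the spread between them may be technical. Input chromatin (2 samples) was not analysed here.

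NRF2 is a transcription factor that KEAP1 normally marks for degradation. Once stabilised by electrophiles or by compounds such as CDDO-Im, it pairs with small MAF proteins and binds antioxidant response elements at detoxification and glutathione genes. The GSTM genes encode cytosolic enzymes that join glutathione to electrophilic compounds so that these can be exported. In mouse, Gstm genes are among the genes induced through NRF2. EPS8L3 belongs to the EPS8 family of adaptor proteins, which link receptor signalling to the actin cytoskeleton, and is not a glutathione enzyme.

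The peaks fell at 3 places, one inside GSTM2, one just past GSTM5 and one beyond EPS8L3, and differed widely in strength. Strength is given as tags, the number of sequenced fragments stacked at a peak's summit. Tags were recovered from the fold enrichment and −log10 p that the authors list for each peak. Libraries were put on one scale by dividing tags by the genome-wide background of the library. That background was 0.332 and 0.367 tags in CDDO-Im 1 and 2, and 0.316 and 0.315 tags in vehicle 1 and 2. The lists held 3882 and 12244 peaks for CDDO-Im 1 and 2, and 4098 and 7308 for vehicle 1 and 2, on chromosomes 1 to 22 and X. The fewest tags of any listed peak were 4 in each library.

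**Figure D1:**
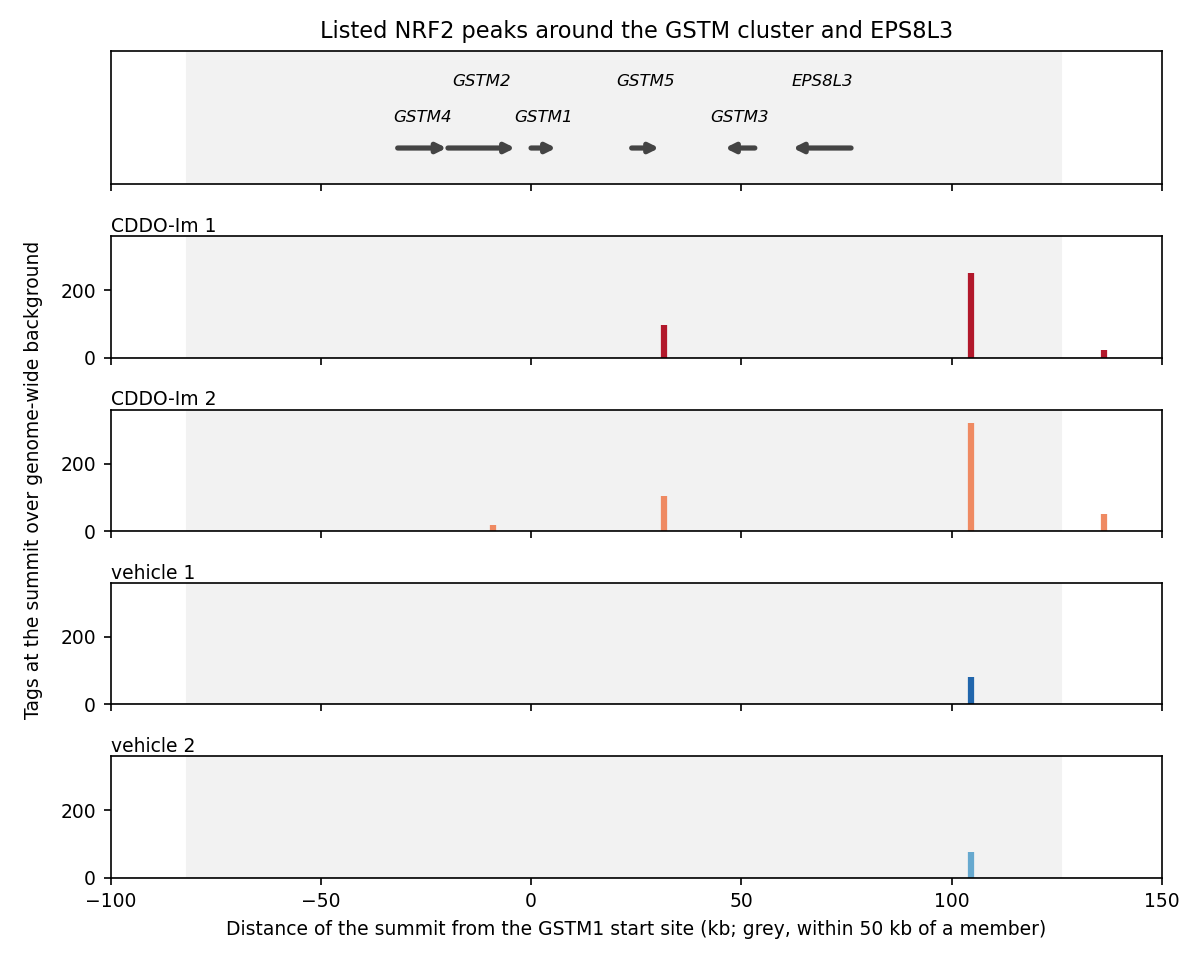
The 6 genes (arrows point in the direction of transcription) and the listed NRF2 peaks, by distance of the summit from the GSTM1 start site in kb; bar height is tags at the summit over genome-wide background, 1 row per library, with CDDO-Im above vehicle. The tallest bar in every library is the EPS8L3 region, and the GSTM5 region has a bar in the CDDO-Im rows only.

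The region beyond EPS8L3 was the strongest of the 3 and was listed in all 4 libraries. It covered chr1:109792001-109792633 and lay outside every RefSeq gene, 28.4 kb upstream of the EPS8L3 start. EPS8L3 was the nearest protein-coding gene. The nearest annotated gene of any kind was the long non-coding RNA gene LOC124904258, 16926 bp away. The summit held 83 and 118 tags in CDDO-Im libraries 1 and 2, against 26 and 24 tags in vehicle libraries 1 and 2. The exact 95% Poisson intervals were 66.1 to 103 and 97.7 to 141 tags for the CDDO-Im libraries, and 16.98 to 38.1 and 15.4 to 35.7 tags for the vehicle libraries, and cover counting error only. Both CDDO-Im libraries held more tags than either vehicle library, before division by background. The intervals leave out the spread between replicates, and the region was chosen from these lists, so they are no test of a difference.

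Over genome-wide background the EPS8L3 region averaged 286 ± 50.1 in CDDO-Im libraries and 79.3 ± 4.31 in vehicle libraries (SD, n = 2 each). The difference of group means was 1.84 on the log2 scale, or 3.58-fold, against a spread within groups of 0.19 (SD on the log2 scale). The 4 ratios of a CDDO-Im to a vehicle library ran from 3.04 to 4.21. With 2 libraries against 2, no exact two-sided permutation test can give a p below 0.333, and none was run because the region was chosen from these lists.

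**Figure D2:**
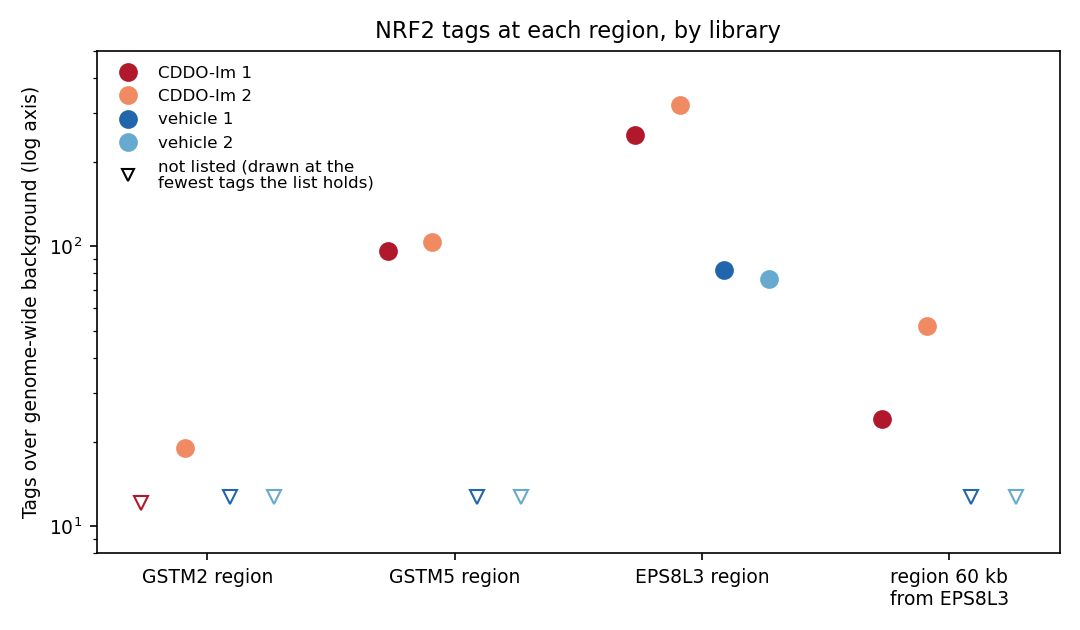
Tags at the summit over genome-wide background (log axis) for each region and library. Open triangles mark libraries that list no peak there, drawn at 4 tags, the fewest of any listed peak; they are not measured values. In the EPS8L3 region the CDDO-Im libraries (250 and 321) lie above the vehicle libraries (82.4 and 76.3).

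How the difference compared with other sites depended on which sites were taken. Joined regions listed in all 4 libraries numbered 433, and both CDDO-Im libraries were above both vehicle libraries in 47.8% of them. The median ratio of these 433 was 1.203, with quartiles of 0.893 and 3.29, and the EPS8L3 region ranked number 79 by ratio, 83 by CDDO-Im tags and 132 by vehicle tags. Outside dense megabases, which hold more than 20 joined regions each and were set apart after the data were seen, both CDDO-Im libraries were higher in 87.0% of 230 regions. The megabase with the GSTM genes held 7 regions. The median ratio of the 230 regions was 3.21, with quartiles of 2.36 and 3.88. Some of the 230 were strong in both groups, with a ratio near 1. One of them (chr1:125178823-125180893) had 1028 and 822 over background in CDDO-Im 1 and 2, and 1055 and 925 in vehicle 1 and 2. With such regions counted, the EPS8L3 region ranked number 78 of the 230 by ratio, 23 by CDDO-Im tags and 31 by vehicle tags. Its ratio thus lay above the upper quartile of all 433 regions but inside the quartiles of the 230.

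**Figure D3:**
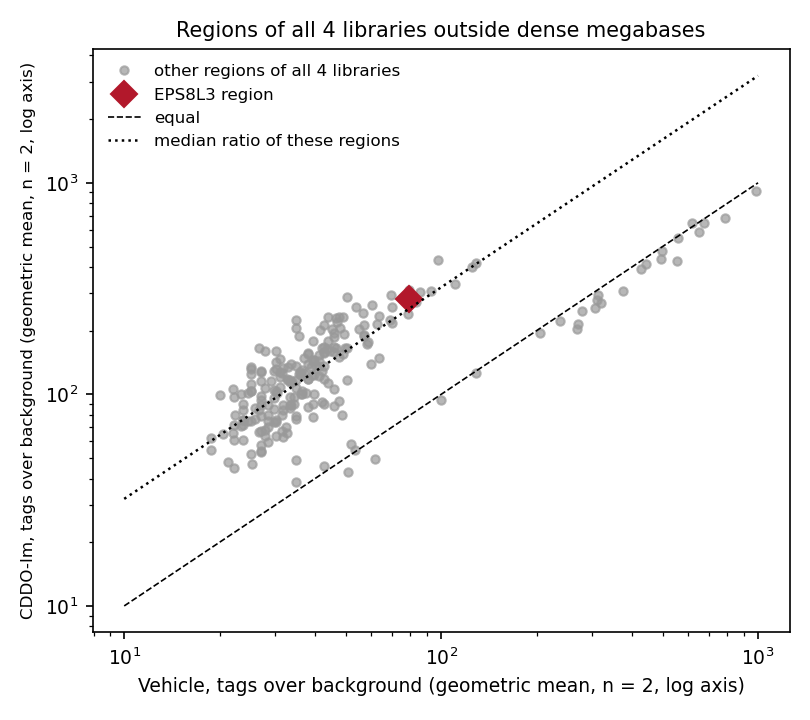
Each point is 1 of 230 regions outside dense megabases that every library lists, with the geometric mean of tags over background in vehicle (x axis) and in CDDO-Im libraries (y axis), both log axes, n = 2 each. The dashed line marks equality and the dotted line the median ratio of 3.21. The EPS8L3 region lies close to the dotted line, at a ratio of 3.58.

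Within each list the EPS8L3 peak was among the strongest by the authors' fold enrichment. It ranked 10 of 3882 in CDDO-Im 1 (53.3-fold enrichment over local background) and 27 of 12244 in CDDO-Im 2 (59.0-fold). It ranked 6 of 4098 in vehicle 1 (20.2-fold) and 44 of 7308 in vehicle 2 (14.9-fold). These ranks describe each list and are not a change between lists of different length. The strong peak was a reason for choosing the genes, so nothing follows from its high ranks. The 4 summits lay within 36 bp of each other, the same as the median of 36 bp over the 226 regions outside dense megabases with 1 peak per library. The peak was 474 and 541 bp wide in CDDO-Im 1 and 2, and 322 and 573 bp wide in vehicle 1 and 2. The local background at the peak was 1.73 and 2.76 times the genome-wide background in CDDO-Im 1 and 2, and 1.07 and 2.17 times in vehicle 1 and 2. With tags divided by the local background in place of the genome-wide one, CDDO-Im lay 2.49-fold above vehicle.

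The GSTM5 region was listed by the CDDO-Im pair and by no vehicle library. It covered chr1:109719280-109719842, outside every annotated gene. Its summit lay 1205 bp past the 3′ end of GSTM5 and 7.2 kb from the GSTM5 start site. GSTM3, which is transcribed towards it from the other side, ended 14.5 kb away. The summit held 32 and 38 tags in CDDO-Im libraries 1 and 2 (95% Poisson intervals of 21.9 to 45.2 and 26.9 to 52.2 tags, counting error only). Over genome-wide background these were 96.5 and 103, a mean of 100 ± 4.9 (SD, n = 2), so the libraries lay close together on that scale. They differed in local background, which was 1.73 and 1.0 times the genome-wide one in CDDO-Im 1 and 2. The peak was 317 and 563 bp wide in CDDO-Im 1 and 2. The 2 summits were 17 bp apart.

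No vehicle value exists for the GSTM5 region, since the lists hold only peaks that passed the authors' threshold. As much NRF2 signal as in the CDDO-Im libraries would have been 31.5 and 31.4 tags in vehicle 1 and 2. Only 190 of 4098 and 241 of 7308 vehicle peaks held that many or more, and the lists reached down to 4 tags. Absence from both vehicle lists goes with a lower signal there than that, but its value was not measured, and no fold is given. Gained regions, those listed by the CDDO-Im pair and by no vehicle library, made up 19.3% of the 7386 regions outside dense megabases, those of all 4 libraries 3.11%, and those of CDDO-Im 2 alone 35.3%. Around the 6 genes there was 1 region of each of these kinds.

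**Figure D4:**
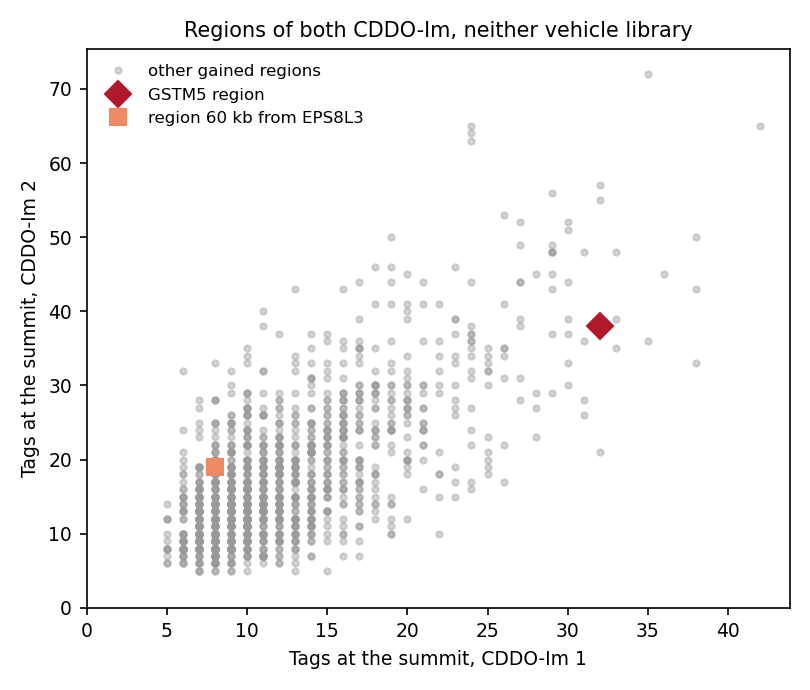
Tags at the summit in CDDO-Im 1 (x axis) and CDDO-Im 2 (y axis) for the 1428 gained regions outside dense megabases. The GSTM5 region, at 32 and 38 tags, lies far above the medians of 11 and 16 tags, while the region 60 kb from EPS8L3 has 8 and 19. The strong peak near GSTM5 was a reason for choosing the genes, so nothing follows from its place here.

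Among those 1428 regions the GSTM5 region ranked number 30 by CDDO-Im tags, where the median region held 11 and 16 tags in the CDDO-Im pair. Since the genes were chosen partly for this peak, nothing follows from that rank. The ranks below carry the same limit. By the authors' fold enrichment, 20.9 and 28.5, the GSTM5 peak ranked 195 of 3882 in the CDDO-Im 1 list and 234 of 12244 in the CDDO-Im 2 list. The EPS8L3 region held 2.59 times as many tags as the GSTM5 region in CDDO-Im 1 and 3.11 times as many in CDDO-Im 2.

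The third region was weak and was listed in CDDO-Im 2 alone. It lay inside GSTM2 (chr1:109678726-109678902), 10.8 kb from the GSTM2 start and 9.0 kb upstream of GSTM1. Whether it is exonic or intronic was not analysed here, because the gene table gives no exons. It held 7 tags (95% Poisson interval of 2.81 to 14.4, counting error only), a fold enrichment of 5.70 and a −log10 q of 4.50. It was 177 bp wide, the shortest width in that list, and ranked 7062 of 12244. The other 3 libraries listed no peak there, which at 4 tags and more does not show that NRF2 was absent. Without CDDO-Im 1, gained regions around the 6 genes number 2, with this one included, in place of 1.

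The genes share these regions, because their 50 kb windows overlap. GSTM2, GSTM1 and GSTM5 each had the GSTM2 and the GSTM5 region within 50 kb, and EPS8L3 had the GSTM5 region (30.6 kb) and the EPS8L3 region. GSTM3 had the GSTM5 region alone within 50 kb, and the EPS8L3 region lay just outside at 51.3 kb. GSTM4 had only the weak GSTM2 region, at 11.1 kb, and the GSTM5 region lay just outside at 51.7 kb. All 6 genes thus had a listed region within 50 kb, against 31.5% of all protein-coding genes. With a peak in the CDDO-Im pair required, 5 of the 6 had one, all but GSTM4, against 11.6% of all genes. With one in the vehicle pair required, 1 had one, EPS8L3, against 1.81%. Since 1 region can serve several neighbours and the genes were chosen for these peaks, nothing follows from those shares.

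None of the peaks reached a start site. No library listed a peak that overlapped the promoter window of any of the 6 genes, from 250 bases before to 50 bases after the start. The nearest summit was 7.2 kb from the window at GSTM5, 8.7 kb at GSTM1, 10.8 kb at GSTM2, 21.5 kb at GSTM3, 22.7 kb at GSTM4 and 28.2 kb at EPS8L3. Across the genome, 34 of 34961 promoter windows (0.0973%) overlapped a region that the CDDO-Im pair listed.

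The letters of the core antioxidant response element occur in the promoters of the neighbours GSTM1 and GSTM5. TGACNNNGC was searched on both strands of the RefSeq promoter windows (GRCh38.p14) and matched once in each of these 2 genes and in none of the other 4. Over all 35116 windows, 13.3% held a match. The narrower TGACTCAGC, a form of the core that overlaps the AP-1 letters TGACTCA, was in 0.561% of all windows, and TGACTCA itself in 4.95%, and neither was in any of the 6. A match is a run of letters and not a measured site. The stretches are shown because 2 of these copies hold the motif letters at this place and GSTM2 does not, with the 9 matching bases in capitals and the bases of GSTM2 aligned to them left in lower case. They lie on the plus strand at chr1:109687637-109687675 for GSTM1, chr1:109712077-109712115 for GSTM5 and chr1:109667880-109667918 for GSTM2.
GSTM1: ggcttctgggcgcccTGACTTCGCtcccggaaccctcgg
GSTM5: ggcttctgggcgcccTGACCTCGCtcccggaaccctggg
GSTM2: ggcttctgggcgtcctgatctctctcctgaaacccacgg

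Counted from 1 at the 5′ end of the 9 bases in GSTM1, GSTM5 differed by T5C, which lies in the free letters of the motif. GSTM2 differed by C4T, T5C and G8T, of which C4T and G8T fall on fixed letters. The match began 165 bases before the start in GSTM1 and 159 bases before it in GSTM5. The promoters of GSTM1 and GSTM5 shared 260 of 293 aligned bases (88.7%), those of GSTM2 and GSTM5 218 of 288 (75.7%) and those of GSTM2 and GSTM1 214 of 286 (74.8%). The sequence of the GSTM2 and GSTM5 regions themselves was not used here, and the sources used here do not say how reads with several matches were handled. Whether reads at these regions could also come from another copy was not tested.

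The next regions on either side lay farther out. On the EPS8L3 side, a region 60.1 kb from the gene (chr1:109823857-109824195), just past the 50 kb limit, held 8 and 19 tags in the CDDO-Im pair and had no vehicle peak. It lay 4045 bp from the long non-coding RNA gene LINC01768. On the GSTM4 side the next region was 272.1 kb away, inside SORT1, with 8 tags in CDDO-Im 2 alone.

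Of the other 11 protein-coding genes within 250 kb of the block, 3 (PSMA5, AMPD2 and AHCYL1) had a listed region within 50 kb, and 1, AHCYL1, had one listed by the CDDO-Im pair. Over all protein-coding genes these shares were 31.5% and 11.6%, so the counts are near the background. AHCYL1, which encodes a partner of inositol trisphosphate receptors, held its region inside the gene (chr1:110003833-110004255) with 25 and 33 tags in the CDDO-Im pair and no vehicle peak. CSF1, which encodes a growth factor for microglia, had no region within 50 kb, and the nearest summit was 73.0 kb away. The remaining 7 genes, SYPL2, ATXN7L2, CYB561D1, AMIGO1, GPR61, GNAI3 and GNAT2, had none within 50 kb either.

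Glutathione transferase genes outside the mu class were also found near regions. Of 17 such genes matched in the gene table, out of 18 listed (GSTT2 was not matched), 6 lay within 50 kb of a region listed by the CDDO-Im pair. These were the alpha-class genes GSTA1, GSTA2, GSTA3, GSTA4 and GSTA5 and the microsomal MGST3. The background over all protein-coding genes is the 11.6% given above. The alpha genes are neighbours on chromosome 6 and shared 2 regions, so they are not independent. One of these, 19.8 kb from GSTA3 and 48.4 kb from GSTA4 (chr6:52929326-52929786), was listed in all 4 libraries, with 22 and 60 tags in the CDDO-Im pair, against 9 and 10 in the vehicle pair. The other, 2.7 kb from GSTA1 (chr6:52788566-52788864), held 15 and 10 tags in the CDDO-Im pair and had no vehicle peak. GSTA3 and GSTA4 were the 2 genes of the list near a region of the vehicle pair, both through that same region. They made up 11.8% of the 17 genes, against 1.81% of all protein-coding genes. Since they share the region, nothing follows from that share.

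MGST3, a membrane-bound glutathione transferase and peroxidase, had a region inside the gene (chr1:165650993-165651353) with 14 and 21 tags in the CDDO-Im pair and no vehicle peak. GSTP1, the pi-class enzyme, had one 22.8 kb away with 10 tags in CDDO-Im 2 and 9 in vehicle 1, and no peak in the other 2 libraries. Every one of these regions held fewer tags in each CDDO-Im library than the EPS8L3 region. The strong peak at the EPS8L3 region was a reason for choosing the genes, so nothing follows from that. The region near GSTA3 held fewer tags than the GSTM5 region in CDDO-Im 1 (22 against 32) and more in CDDO-Im 2 (60 against 38). Of EPS8, EPS8L1 and EPS8L2, the other EPS8 genes, none lay within 50 kb of a region listed by the CDDO-Im pair. The share over all protein-coding genes was 11.6%, so with 3 genes nothing follows from this count. EPS8 had 3 regions listed in 1 CDDO-Im library each, with 5 to 8 tags.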

How the data were processed

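The submitters' processing notes name MACS2 2.2.7.1, BWA 0.7.17 and bcl2fastq 2.15.0 as tools and both hg38 and GRCm38 as builds; the lists use human chromosomes, and coordinates are given on hg38. The sources used here do not state the control, the threshold or how duplicates were treated. The deposited lists, made per library, give, per peak, the authors' fold enrichment (ratio), its −log10 p, its −log10 q and a deposited score, 10 times the −log10 q. The authors' values were used only within a list.

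Whole tags t and background b were solved from fold = (t + 1)/(b + 1) and the Poisson tail above t (tolerance 0.001 plus 0.0002 of the value). A match was found for 100% of peaks, a single one for 97.7% to 99.4% per library and for each of the 7 peaks described. The lowest b of a library was its genome-wide background. Library totals are not in the lists, so depth is known only through it. On chromosomes 1 to 22 and X, peaks were joined where they overlapped by at least 1 bp, a region took a library's highest summit, and recovery and joining were tested on simulated data. Genes and promoters came from RefSeq (GRCh38.p14). Promoters were aligned in Biopython 1.88. Python 3.11.15 and SciPy 1.17.1 were used.

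Genes and lists were chosen with earlier results of these data known; genes named are the 6, their neighbours within 250 kb, glutathione transferase genes outside the mu class and EPS8 genes, with SORT1, LINC01768 and LOC124904258 named after their values were seen. Dense megabases were set apart, and promoter alignments made, after the data were seen. Protein identity was not analysed here.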

Additional observations from a re-analysis of the deposited data

How the results depend on the processing

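At the EPS8L3 region CDDO-Im lay above vehicle under each alternative run: 1.99 on the log2 scale with tags not divided, 1.79 with background taken over the shortest peak width, and 1.32 (2.49-fold) with the local background at the peak. Summing tags over the peaks of a region changed nothing, since each library had 1 peak there. Leaving out a library gave 1.66 (without CDDO-Im 2) to 2.02 (without CDDO-Im 1). The labels do not say that replicate numbers pair the libraries, and the deviations of same-numbered libraries correlated at -0.04 over 230 regions and 0.24 over 433. The replicate block left the value at 1.84 (1.60 in replicate 1, 2.07 in replicate 2). No test comes with it.

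The number of regions around the 6 genes was 2 when only peaks with a −log10 q of 5 or 10 upwards were kept and also within 10 kb, 4 within 100 kb, and 2 to 3 on leaving out a library. Gained regions numbered 2 within 100 kb and 1 to 2 on leaving out a library. Regions of every library numbered 0 within 10 kb, because the EPS8L3 region lies 28.4 kb out, and 1 in all other settings. Of the other glutathione transferase genes, those near a region of the CDDO-Im pair numbered 3 at either q limit, 2 within 10 kb, 8 within 100 kb and 6 to 9 on leaving out a library. Those near a region of the vehicle pair numbered 0 at either q limit and within 10 kb, and 3 within 100 kb. Leaving out a library gave 2 to 3. For the vehicle pair, the share of all protein-coding genes was 1.18% and 0.396% at the 2 q limits. It was 0.811% within 10 kb, 3.22% within 100 kb, 7.53% without vehicle 1 and 6.66% without vehicle 2. Over all protein-coding genes, 10.0% and 6.63% lay near a region of the CDDO-Im pair at the 2 q limits, 5.79% within 10 kb and 18.8% within 100 kb. Without CDDO-Im 1 this share was 22.98%, and without CDDO-Im 2 it was 16.4%, since a single list then stands for the pair. Joining peaks only at an overlap of 50% of the shorter one changed none of these counts around the 6 genes or in the list. Peaks near 4 tags are at the limit of the lists, so absence from a list does not show absence of NRF2.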
